A study of Homo sapiens with 8 samples.

Results

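The G1 cyclins, their kinases and the inhibitors of those kinases were taken as 10 genes by symbol: CCND1, CCND2, CCND3, CCNE1, CCNE2, CDK4, CDK6, CDKN1A, CDKN1B and CDKN2A. Of these, 9 had a row among the 21123 genes of the deposited table, and CCND2 was not analysed here. A gene was tested when it reached at least 1 FPKM (a level normalized to transcript length and library size) in at least 2 of the 8 libraries, which 8 of the 9 did. CDKN2A stayed below that level in every library and is described without a test.

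The cells were 143B, an established human osteosarcoma line derived from HOS cells, carrying a stable control shRNA (shControl, genotype labelled WT) or an shRNA against the palmitoyltransferase gene ZDHHC8 (shZDHHC8, labelled ZDHHC8 knockdown). Each background received vehicle, which was PBS, or the DNA-crosslinking platinum drug cisplatin for 48 h. The 4 groups held 2 libraries each: shControl vehicle, shControl cisplatin, shZDHHC8 vehicle and shZDHHC8 cisplatin. The labels give no cisplatin dose, do not say whether the shRNA lines were clones or pools, name 1 batch for every library and call the replicates biological without saying how the cultures were kept apart, so p-values measure the spread between these libraries, which may be technical.

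In G1, D-type cyclins bind CDK4 and CDK6, and E-type cyclins bind CDK2. These kinases phosphorylate RB, which releases E2F factors to switch on genes for DNA synthesis. The CIP/KIP inhibitors p21 (CDKN1A) and p27 (CDKN1B) bind cyclin and kinase complexes, and the INK4 inhibitors bind CDK4 and CDK6 alone. p21 is a classical target of the DNA damage response, and the p16INK4a-cyclin D-CDK4-RB axis is often altered in osteosarcoma.

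ZDHHC8, the targeted gene, had 23.7 and 23.1 FPKM in shControl vehicle, 32.3 and 32.8 in shControl cisplatin, 14.3 and 9.81 in shZDHHC8 vehicle, and 23.5 and 22.3 in shZDHHC8 cisplatin. With the knockdown its log2 difference was -0.92 ± 0.13 under vehicle (SE, limma adjusted p = 0.000472) and -0.49 ± 0.13 under cisplatin (limma adjusted p = 0.0102), and the knocked-down cells under cisplatin were near the level of shControl vehicle. Without shZDHHC8 cisplatin replicate 2 the second change was -0.46 with a limma adjusted p of 0.0558. Library totals ran from 361060 to 391016 FPKM, replicates correlated at Pearson r 0.995 to 0.996 across tested genes, and the read depth is unknown because the values are not counts. Of 9 mesenchymal and osteoblast markers, 7 had a row and 5 reached 1 FPKM in both libraries of every group; VIM carried most of their sum, COL1A2 stayed under 1 FPKM and the osteocalcin gene BGLAP lay between 0.054 and 0.233 FPKM. The pan-leukocyte marker PTPRC reached at most 0.140 FPKM and the T-cell marker CD3E was at 0 in every library, while the summed leukocyte list, carried by CD68, was 14.5 to 16.0 FPKM in shControl vehicle, 15.9 to 16.0 in shControl cisplatin, 41.4 to 45.9 in shZDHHC8 vehicle and 60.4 to 68.9 in shZDHHC8 cisplatin. VWF, the endothelial marker with a row, reached at most 0.118 FPKM. Of 6 epithelial markers 5 reached 1 FPKM, led by KRT8 at 414 to 653 FPKM, with CDH1 at most 0.392, and their sum was 918 to 929, 797 to 807, 637 to 647 and 567 to 587 FPKM in the same group order. The part of these shifts in the results below was not tested.

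In cells with the control shRNA, cisplatin moved 7 of the 8 tested genes, where 62.2% of all 13495 tested genes were called: CCND1, CCND3, CCNE1, CDK4, CDK6 and CDKN1A rose and CDKN1B fell. In knocked-down cells 5 of 8 moved, a share near the 50.5% of all tested genes, with CDKN1A, CCND3, CCNE2 and CDK4 higher and CCND1 lower. The cisplatin change of CCND1, CDK6, CCNE1 and CDKN1A differed between the backgrounds, each being smaller or of opposite sign in knocked-down cells; 30.4% of all tested genes had a called difference, in either direction. Under vehicle the knockdown went with higher CCND1 and CDK4, and both of those calls held in every alternative run. In bulk RNA, fewer cells expressing a gene cannot be told apart from less RNA per cell.

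**Figure D1:**
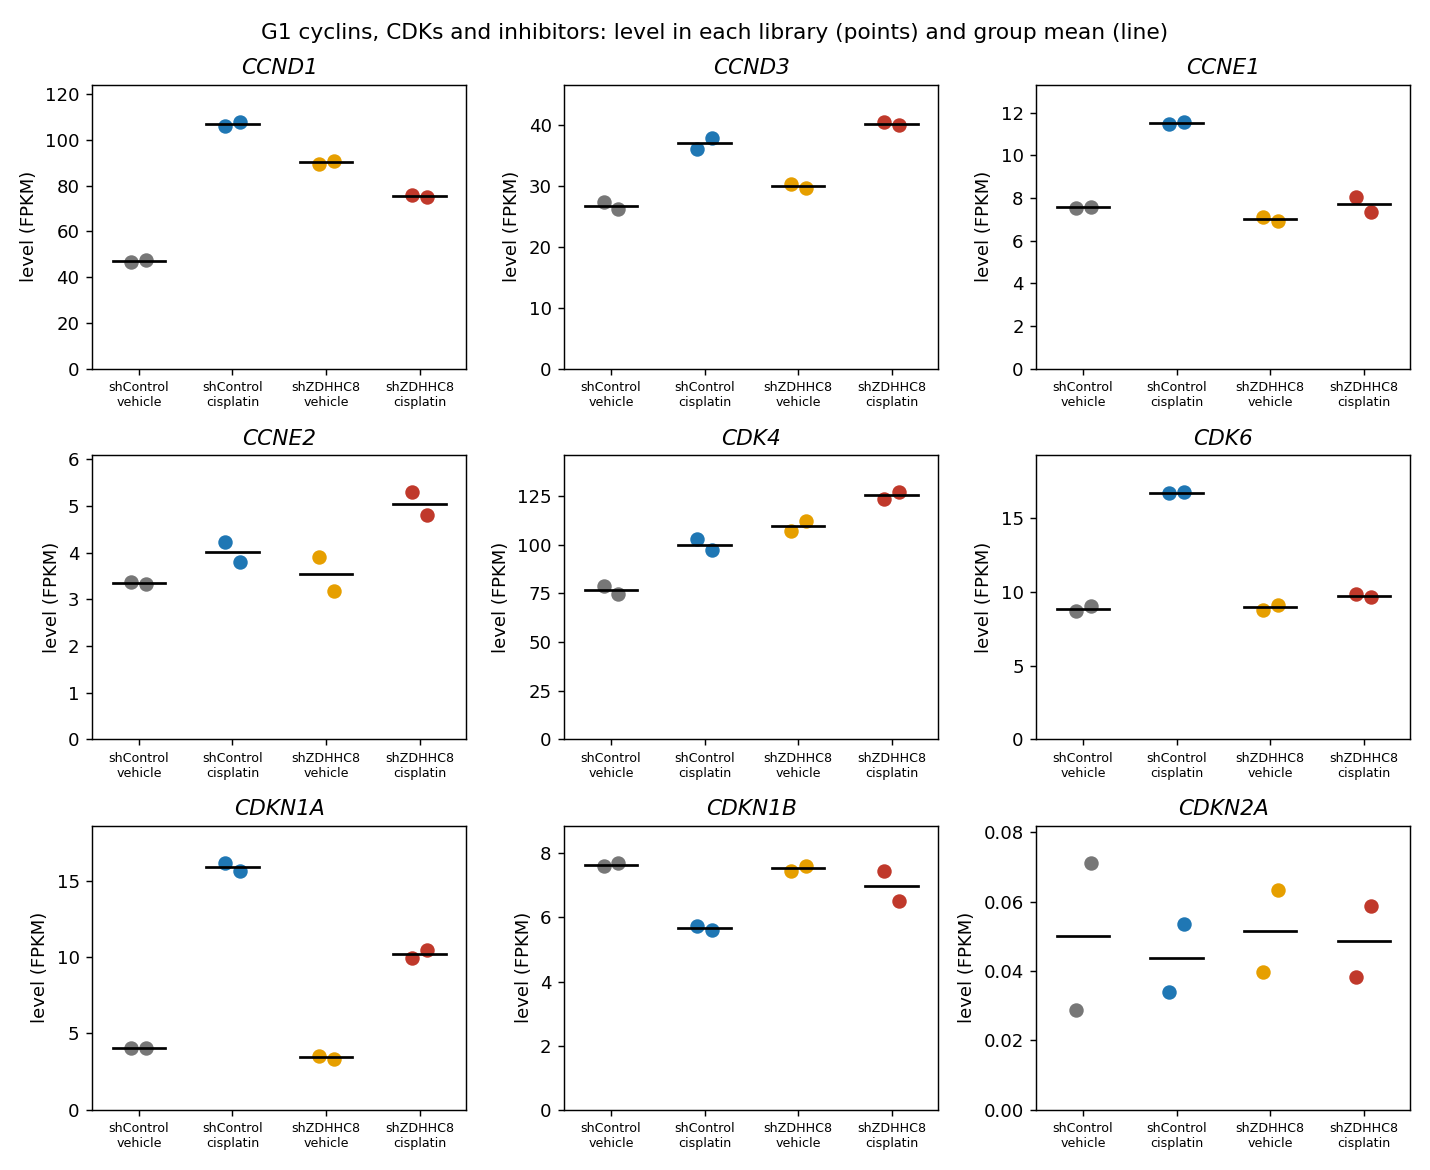
Level in FPKM (vertical axes, starting at 0) of the 9 genes with a row in each of the 8 libraries, as points, with the group mean as a line. CCND1 is lowest in shControl vehicle (46.7 and 47.7) and highest in shControl cisplatin (106 and 108), and CDKN2A stays at or below 0.0712 everywhere.

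CCND1 encodes cyclin D1, the D-type cyclin most often amplified in tumours, and lies on chromosome 11 at 69641156 to 69654474, plus strand, in hg38 coordinates of the deposited table. Its level was 46.7 and 47.7 FPKM in shControl vehicle, 106 and 108 in shControl cisplatin, 89.5 and 90.9 in shZDHHC8 vehicle, and 75.8 and 75.2 in shZDHHC8 cisplatin. No group overlapped another, and the order from low to high was shControl vehicle, shZDHHC8 cisplatin, shZDHHC8 vehicle, shControl cisplatin. Among the 14719 protein-coding genes of the table its group mean stood at the percentiles 91.1, 94.3, 95.7 and 96.8 in that order. Fold changes here and below are log2 differences of FPKM + 1, which understates the change of low genes. Cisplatin raised CCND1 in shControl cells by 1.16 ± 0.041 (SE, 2 libraries a group, limma adjusted p = 2.11e-07). In shZDHHC8 cells CCND1 fell by 0.25 ± 0.041 with cisplatin (limma adjusted p = 0.00113), and by 0.41 after median-of-ratios scaling. The knockdown went with a CCND1 rise of 0.92 under vehicle (limma adjusted p = 9.75e-07) and a fall of 0.50 under cisplatin (limma adjusted p = 1.63e-05). The cisplatin change differed between the backgrounds by -1.42 ± 0.058 (limma adjusted p = 8.31e-06), which ranked 3 of 13495 genes by p. LTO1 overlaps CCND1 on the opposite strand, and since no source used here says whether counting was stranded, reads of overlapping genes may be shared.

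CCND3 encodes cyclin D3 and lies on chromosome 6 at 41934934 to 42050357, minus strand. It had 27.4 and 26.2 FPKM in shControl vehicle, 36.1 and 37.9 in shControl cisplatin, 30.3 and 29.7 in shZDHHC8 vehicle, and 40.5 and 40.0 in shZDHHC8 cisplatin. The groups did not overlap, and both cisplatin groups lay above both vehicle groups. Cisplatin raised CCND3 by 0.45 ± 0.050 in shControl cells (limma adjusted p = 6.56e-05) and by 0.41 ± 0.050 in shZDHHC8 cells (limma adjusted p = 0.00026), the latter 0.26 after median-of-ratios scaling. The difference between these changes was -0.037, with a 95% interval from -0.20 to 0.12 (limma adjusted p = 0.722). The knockdown went with a CCND3 rise of 0.16 under vehicle (limma adjusted p = 0.0269) that kept its call in 8 of 15 alternatives. That call was lost without shControl vehicle replicate 2 (0.12, limma adjusted p = 0.155), without shZDHHC8 vehicle replicate 1 (0.14, limma adjusted p = 0.0887) and without shZDHHC8 vehicle replicate 2 (0.17, limma adjusted p = 0.0545), and with a common total it was 0.089 (limma adjusted p = 0.169). It was lost as well after median-of-ratios scaling (limma adjusted p = 0.0570), without a trend (limma adjusted p = 0.0518) and with the 4 libraries of the comparison alone (limma adjusted p = 0.0584). Under cisplatin the knockdown difference of CCND3 was 0.12, with a 95% interval from 0.0067 to 0.23, and was not called (limma adjusted p = 0.0632).

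Summed, CCND1 and CCND3 came to 73.8 to 74.1 FPKM in shControl vehicle, 142 to 146 in shControl cisplatin, 120 to 121 in shZDHHC8 vehicle, and 115 to 116 in shZDHHC8 cisplatin. CCND1 made up 63.0% to 64.6% of this sum in shControl vehicle and 65.1% to 65.3% in shZDHHC8 cisplatin, against 74.0% to 74.6% in shControl cisplatin and 74.7% to 75.4% in shZDHHC8 vehicle. The D-type sum in knocked-down cells thus lay within a few FPKM with and without the drug, while its makeup differed.

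The E-type cyclins were lower, at 3.18 to 11.6 FPKM. CCNE1 encodes cyclin E1, an activator of CDK2 at entry into S phase, and lies on chromosome 19 at 29811991 to 29824312, plus strand. Its proximal promoter is shown because CCNE1 was 1 of the 4 members with exactly 1 RefSeq window, whatever their expression. The stretch is chr19:29811741-29811897, plus strand, GRCh38.p14, from RefSeq, ending before the first annotated exon. Capitals mark the GC box GGGCGG, the recognition motif of SP-family factors, on either strand (CCGCCC on the opposite one).
CCNE1: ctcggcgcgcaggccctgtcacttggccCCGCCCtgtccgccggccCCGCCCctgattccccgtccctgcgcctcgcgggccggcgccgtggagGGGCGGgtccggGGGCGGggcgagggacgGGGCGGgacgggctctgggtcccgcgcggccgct
The stretch holds 5 GC boxes and the whole RefSeq window, from 250 bases before the start, holds 7; GGGCGG occurs in 42.6% of the 35116 windows of the same length. The E2F motif TTTNNCGC, found on either strand in 5.92% of windows, was not among its letters.

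CCNE1 had 7.54 and 7.60 FPKM in shControl vehicle, 11.5 and 11.6 in shControl cisplatin, 7.10 and 6.91 in shZDHHC8 vehicle, and 8.07 and 7.36 in shZDHHC8 cisplatin. The shControl cisplatin libraries stood above all others, and shControl vehicle lay within the range of shZDHHC8 cisplatin. Cisplatin raised CCNE1 by 0.55 ± 0.063 in shControl cells (limma adjusted p = 8.57e-05). In shZDHHC8 cells the difference was 0.12, with a 95% interval from -0.021 to 0.27 (limma adjusted p = 0.135), and it was -0.014 after median-of-ratios scaling. The cisplatin change differed between backgrounds by -0.43 ± 0.089 (limma adjusted p = 0.00844). Knocked-down cells had less CCNE1 than control cells under cisplatin, by a log2 change of -0.52 ± 0.063 (limma adjusted p = 0.000129). Under vehicle the difference was -0.099, with a 95% interval from -0.24 to 0.044 (limma adjusted p = 0.219).

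CCNE2 encodes cyclin E2, the second E-type partner of CDK2, on chromosome 8 at 94879770 to 94896678, minus strand. It had 3.36 and 3.32 FPKM in shControl vehicle, 4.23 and 3.80 in shControl cisplatin, 3.90 and 3.18 in shZDHHC8 vehicle, and 5.29 and 4.79 in shZDHHC8 cisplatin. The shZDHHC8 cisplatin libraries were above all others, and shZDHHC8 vehicle overlapped both shControl groups. Cisplatin raised CCNE2 by 0.42 ± 0.096 in shZDHHC8 cells (limma adjusted p = 0.00665). Leaving out single libraries gave 0.30 to 0.53, and the lowest value over all alternatives was 0.29. In shControl cells the difference was 0.21, with a 95% interval from -0.0094 to 0.43 (limma adjusted p = 0.0870), and the 2 changes differed by 0.21 ± 0.14 (limma adjusted p = 0.275). The pattern of CCNE2 over the groups therefore had its high point in another group than that of CCNE1, but its own difference between backgrounds did not pass the test. Under vehicle the knockdown difference was 0.060, with a 95% interval from -0.16 to 0.28 (limma adjusted p = 0.620), and -0.054 without shZDHHC8 vehicle replicate 1. Under cisplatin CCNE2 was higher with the knockdown by 0.27 (limma adjusted p = 0.0366), a call kept in 7 of 15 alternatives. The call was lost without shControl cisplatin replicate 2 (0.21, limma adjusted p = 0.177), shZDHHC8 cisplatin replicate 1 (0.21, limma adjusted p = 0.180), shZDHHC8 cisplatin replicate 2 (0.33, limma adjusted p = 0.0533) and either shControl vehicle replicate (limma adjusted p = 0.0511 for each). It was also lost with no filter (limma adjusted p = 0.0714), a common total (0.19, limma adjusted p = 0.111) and median-of-ratios scaling (0.21, limma adjusted p = 0.0859). NDUFAF6, INTS8 and AC087752.4 overlap CCNE2 on the opposite strand.

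As a share of the E-type sum, CCNE1 made up 69.2% to 69.6% in shControl vehicle, 73.1% to 75.3% in shControl cisplatin, 64.5% to 68.5% in shZDHHC8 vehicle, and 60.4% to 60.6% in shZDHHC8 cisplatin. The sum itself was 10.9 FPKM in both shControl vehicle libraries, 15.4 to 15.7 in shControl cisplatin, between 10.08 and 10.999 in shZDHHC8 vehicle, and 12.2 to 13.4 in shZDHHC8 cisplatin.

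CDK4, a kinase partner of the D-type cyclins, lies on chromosome 12 at 57747727 to 57756013, minus strand, and was the most abundant of the genes in 6 of the 8 libraries. It was another member with exactly 1 RefSeq window, and its E-boxes, CACGTG, are shown with their flanks. MYC binds this motif, and MYC levels are given below. CDK4 was highest in shZDHHC8 cisplatin and MYC in shControl cisplatin, and a link between them was not tested. The sites lie before the RefSeq start, on the minus strand of GRCh38.p14, at chr12:57752499-57752528 for site 1 and chr12:57752394-57752423 for site 2; capitals mark CACGTG, which reads the same on both strands.
CDK4 site 1: gtCACGTGtgatagcaacagatCACGTGgc
CDK4 site 2: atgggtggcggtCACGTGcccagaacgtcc
CDK4 thus has 3 E-boxes in its window, and 6.34% of all windows hold at least 1. The RefSeq start used for the window lies 3703 bases inside the gene as the deposited table bounds it. Only 39 bases of the window precede the first exon annotated in it, so site 2 and most of site 1 lie past that exon's start.

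CDK4 had 79.0 and 74.5 FPKM in shControl vehicle, 103 and 97.0 in shControl cisplatin, 107 and 112 in shZDHHC8 vehicle, and 124 and 127 in shZDHHC8 cisplatin. The groups did not overlap and rose in that order, the untreated knockdown lying above the treated control. Cisplatin raised CDK4 by 0.38 ± 0.052 in shControl cells (limma adjusted p = 0.000246). The knockdown went with CDK4 rises of 0.51 ± 0.052 under vehicle (limma adjusted p = 7.07e-05) and 0.32 ± 0.052 under cisplatin (limma adjusted p = 0.000679). In shZDHHC8 cells cisplatin raised it by 0.19 (limma adjusted p = 0.0137), a call kept in 12 of 15 alternatives. That call was lost without shZDHHC8 vehicle replicate 1 (0.16, limma adjusted p = 0.0743), without shZDHHC8 cisplatin replicate 2 (0.17, limma adjusted p = 0.0781) and after median-of-ratios scaling (0.039, limma adjusted p = 0.528). The 2 cisplatin changes differed by -0.19 ± 0.073 without passing the test (limma adjusted p = 0.0862), but passed it with a common total (-0.21, limma adjusted p = 0.0409) and with median-of-ratios scaling (-0.23, limma adjusted p = 0.0286). TSPAN31 and MARCHF9 overlap CDK4 on the opposite strand.

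CDK6, the other kinase partner of the D-type cyclins, lies on chromosome 7 at 92604921 to 92836573, minus strand. It had 8.67 and 9.01 FPKM in shControl vehicle, 16.7 in both shControl cisplatin libraries, 8.79 and 9.10 in shZDHHC8 vehicle, and 9.82 and 9.62 in shZDHHC8 cisplatin. The vehicle groups overlapped, shZDHHC8 cisplatin lay just above them, and shControl cisplatin stood far above the rest. Cisplatin raised CDK6 by 0.85 ± 0.056 in shControl cells (limma adjusted p = 3.55e-06). In shZDHHC8 cells the difference was 0.11, with a 95% interval from -0.018 to 0.23 (limma adjusted p = 0.135), and it was -0.032 after median-of-ratios scaling. The cisplatin change of CDK6 differed between backgrounds by -0.74 ± 0.079 (limma adjusted p = 0.000414), and under cisplatin knocked-down cells had less of it, by -0.72 ± 0.056 (limma adjusted p = 1.12e-05). Under vehicle the knockdown difference was 0.016, with a 95% interval from -0.11 to 0.14 (limma adjusted p = 0.824), and its sign turned under both rescalings. CDK6-AS1 overlaps CDK6 on the opposite strand.

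The CDK4 to CDK6 ratio of FPKM was 8.27 to 9.12 in shControl vehicle and 5.80 to 6.17 in shControl cisplatin, but 12.1 to 12.3 in shZDHHC8 vehicle and 12.6 to 13.2 in shZDHHC8 cisplatin. Together the kinases summed to 83.5 to 87.7 FPKM in shControl vehicle, 114 to 120 in shControl cisplatin, 116 to 121 in shZDHHC8 vehicle, and 134 to 136 in shZDHHC8 cisplatin. The sum was therefore lowest in shControl vehicle, and its CDK6 share ranged from 7.05% to 7.36% in shZDHHC8 cisplatin up to 13.9% to 14.7% in shControl cisplatin.

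**Figure D2:**
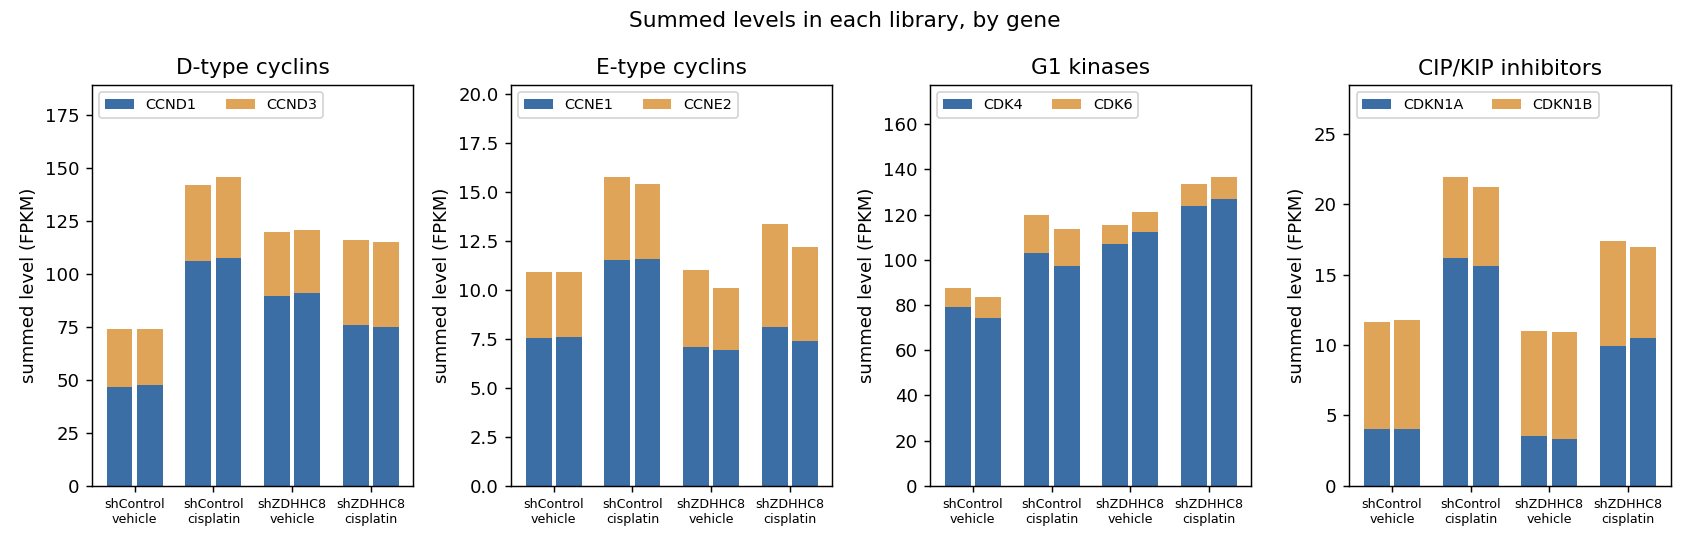
Summed level in FPKM (vertical axes, starting at 0) of the D-type cyclins, E-type cyclins, G1 kinases and CIP/KIP inhibitors, each bar being 1 library and each colour 1 gene. CDKN1A makes up 34.5% to 34.6% of the inhibitor sum in shControl vehicle and 73.6% to 73.8% in shControl cisplatin.

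CDKN1A, the gene of p21, lies on chromosome 6 at 36676460 to 36687337, plus strand. CDKN1A had the largest cisplatin rise among the members in both backgrounds. Its proximal promoter, classically described as carrying SP1 sites near its start, is shown because CDKN1A also had exactly 1 RefSeq window. The stretch is chr6:36678464-36678657, plus strand, GRCh38.p14, from RefSeq, with the GC box GGGCGG in capitals.
CDKN1A: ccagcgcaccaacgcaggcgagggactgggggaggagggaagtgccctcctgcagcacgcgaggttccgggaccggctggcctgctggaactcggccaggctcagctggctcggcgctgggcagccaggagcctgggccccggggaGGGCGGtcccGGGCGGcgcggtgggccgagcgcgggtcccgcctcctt
The stretch holds 2 GC boxes and the window 4, of which the last pair overlap by 1 base; neither CACGTG nor TTTNNCGC is in it. The start used lies 2254 bases inside the gene as the table bounds it.

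CDKN1A had 4.03 and 4.06 FPKM in shControl vehicle, 16.2 and 15.6 in shControl cisplatin, 3.55 and 3.32 in shZDHHC8 vehicle, and 9.96 and 10.5 in shZDHHC8 cisplatin. The groups did not overlap, and both cisplatin groups stood above both vehicle groups. Cisplatin raised CDKN1A by 1.74 ± 0.063 in shControl cells (limma adjusted p = 2.27e-07) and by 1.34 ± 0.063 in shZDHHC8 cells (limma adjusted p = 5.04e-06). The second rise was smaller by 0.41 ± 0.089, written as an interaction of -0.41 (limma adjusted p = 0.0105). Under cisplatin knocked-down cells had less CDKN1A, by a log2 change of -0.59 ± 0.063 (limma adjusted p = 6.6e-05). Under vehicle they were lower by -0.19 (limma adjusted p = 0.0366), a call kept in 5 of 15 alternatives. It was lost with no filter (limma adjusted p = 0.0519), with the 4 libraries of the comparison alone (limma adjusted p = 0.0988) and with a replicate block (limma adjusted p = 0.0541). Leaving out any library other than shZDHHC8 vehicle replicate 1 also ended it, with log2 changes from -0.19 to -0.15 and limma adjusted p from 0.0518 to 0.145.

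CDKN1B, the gene of p27, lies on chromosome 12 at 12715058 to 12722369, plus strand. It also had exactly 1 RefSeq window and is shown by its 2 CCAAT boxes, the recognition motif of NF-Y. CCAAT occurs on either strand in 32.0% of windows. The sites are at chr12:12717182-12717211 (site 1) and chr12:12717306-12717335 (site 2), plus strand, GRCh38.p14, from RefSeq, with CCAAT in capitals. The start used lies 2310 bases inside the gene as the table bounds it, and only 6 bases of the window precede the first annotated exon, so both sites lie in annotated transcript.
CDKN1B site 1: tcacgcgaccagCCAATctcccggcggcgc
CDKN1B site 2: ccgccgccgcaaCCAATggatctcctcctc
These matches, like those above, describe the letters of the windows and were not related to binding.

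CDKN1B had 7.60 and 7.70 FPKM in shControl vehicle, 5.74 and 5.62 in shControl cisplatin, 7.44 and 7.61 in shZDHHC8 vehicle, and 7.45 and 6.53 in shZDHHC8 cisplatin. The shControl cisplatin libraries lay below all others, and shZDHHC8 vehicle overlapped both shControl vehicle and shZDHHC8 cisplatin. Cisplatin lowered CDKN1B in shControl cells by a log2 change of -0.37 ± 0.071 (limma adjusted p = 0.00171). In shZDHHC8 cells the difference was -0.097, with a 95% interval from -0.26 to 0.065 (limma adjusted p = 0.283), though it was called at -0.23 after median-of-ratios scaling (limma adjusted p = 0.0238). It was -0.18 without shZDHHC8 cisplatin replicate 1 and -0.013 without shZDHHC8 cisplatin replicate 2, called in neither. The 2 cisplatin changes differed by 0.28 ± 0.10, which did not pass the test (limma adjusted p = 0.0687) except without shZDHHC8 cisplatin replicate 2 (0.36, limma adjusted p = 0.0412). Under cisplatin CDKN1B was higher with the knockdown by 0.26 (limma adjusted p = 0.0127), a call kept in 12 of 15 alternatives. It was lost without shControl cisplatin replicate 2 (0.24, limma adjusted p = 0.0569), without shZDHHC8 cisplatin replicate 1 (0.17, limma adjusted p = 0.1003) and with a common total (0.17, limma adjusted p = 0.0570). Under vehicle the difference was -0.020 (limma adjusted p = 0.830). AC008115.3 overlaps CDKN1B on the same strand.

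The CDKN1A to CDKN1B ratio was 0.527 to 0.530 in shControl vehicle and 0.436 to 0.477 in shZDHHC8 vehicle, so p27 RNA was the more abundant without the drug. With cisplatin the order turned, at 2.78 to 2.82 in shControl cells and 1.34 to 1.604 in shZDHHC8 cells. The ratio of CCND1 to CDKN1A was 11.6 to 11.7 in shControl vehicle, 6.57 to 6.89 in shControl cisplatin, 25.2 to 27.4 in shZDHHC8 vehicle, and 7.18 to 7.61 in shZDHHC8 cisplatin. Untreated knocked-down cells thus had the highest cyclin D1 to p21 RNA ratio of the 4 groups, and the cisplatin groups the lowest. The D-type sum over the CIP/KIP sum gave 6.28 to 6.38, 6.49 to 6.85, 10.89 to 11.03 and 6.68 to 6.78 in the same group order, and shZDHHC8 vehicle was the high group.

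CDKN2A encodes p16INK4a, which binds CDK4 and CDK6, and p14ARF, a product of another reading frame, from shared exons that a gene-level value does not separate. It lies on chromosome 9 at 21967753 to 21995301, minus strand. Its level was 0.0288 and 0.0712 FPKM in shControl vehicle, 0.0340 and 0.0535 in shControl cisplatin, 0.0396 and 0.0633 in shZDHHC8 vehicle, and 0.0383 and 0.0588 in shZDHHC8 cisplatin. All groups overlapped, and at the percentiles 5.55 to 6.06 of protein-coding genes the gene was at the low end of the table in each of them. CDKN2B, which encodes the related p15INK4b beside it, reached at most 0.0324 FPKM and was not tested either.

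Read against all genes, the numbers of members called were as follows. For cisplatin in shControl cells 7 of 8 tested members were called, 6 higher and 1 lower, where 62.2% of the 13495 tested genes were called (36.8% higher and 25.4% lower). The members' median log2 change was 0.50, against 0.070 over all tested genes. For cisplatin in shZDHHC8 cells 5 of 8 were called, 4 higher and 1 lower, against 50.5% (36.9% and 13.6%), with medians of 0.16 and 0.13. That share and that median were near those of all genes.

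For the knockdown under vehicle 4 of 8 were called, 3 higher and 1 lower, against 51.7% (26.7% and 25.0%), with medians of 0.038 and 0.015, and this too was near the background. The count fell to 2, CCND1 and CDK4, without shControl vehicle replicate 2, without shZDHHC8 vehicle replicate 2 and with the 4 libraries of the comparison alone, and it was 3 when any of the other libraries was left out. For the knockdown under cisplatin 7 of 8 were called, 3 higher and 4 lower, against 61.4% (33.8% and 27.6%), with medians of -0.19 and 0.042. For the difference between the cisplatin changes 4 of 8 were called, all lower in knocked-down cells, against 30.4% (17.0% higher and 13.4% lower), with medians of -0.30 and 0.039. The comparisons share groups, so these counts are not independent of each other.

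**Figure D3:**
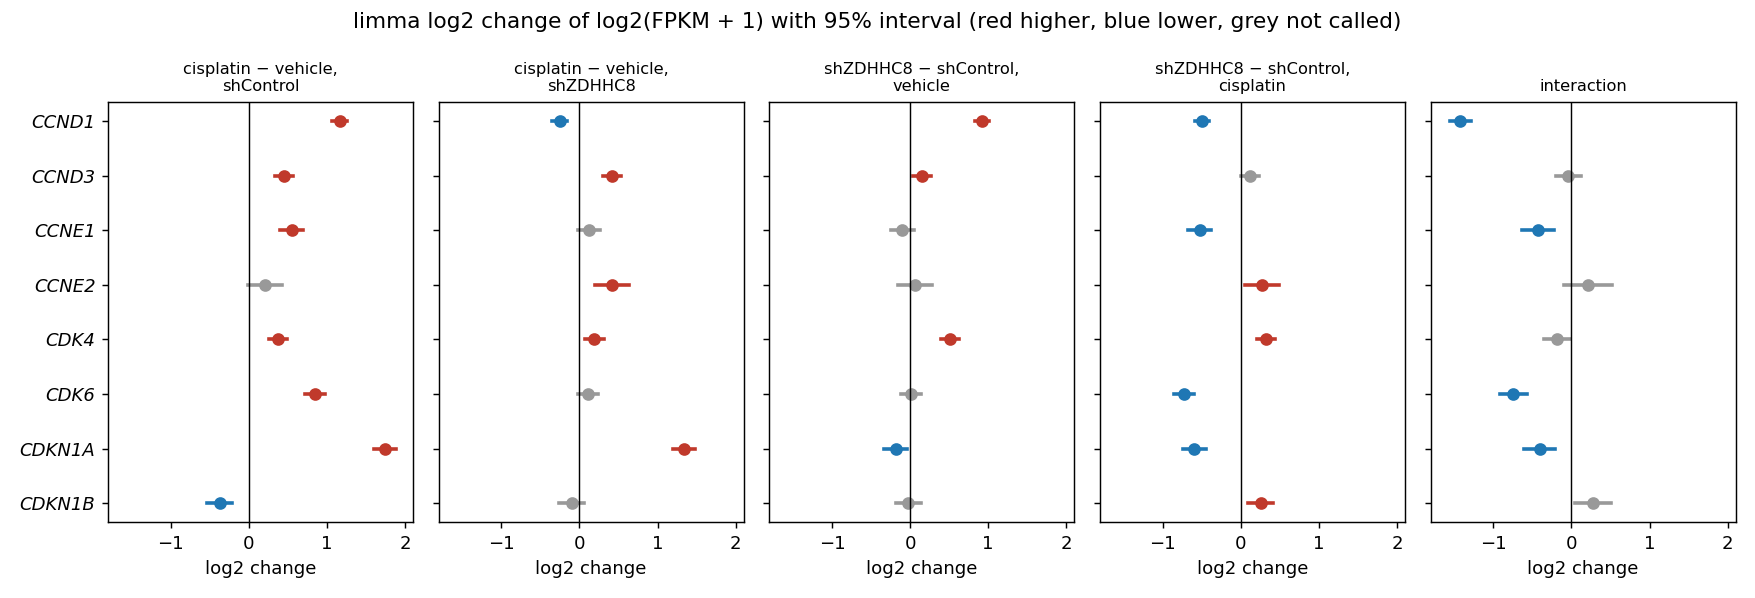
log2 change of FPKM + 1 (horizontal axes) with its 95% interval for the 8 tested genes in the 5 comparisons, red for called higher, blue for called lower and grey for not called. The interaction panel has 4 genes called, all below 0, with CCND1 at -1.42.

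The other INK4 and CIP/KIP inhibitors were CDKN1C (p57), CDKN2C (p18) and CDKN2D (p19), with CDKN2B untested. CDKN2C, an INK4 inhibitor of CDK4 and CDK6, had 22.3 FPKM in both shControl vehicle libraries, 8.31 and 8.09 in shControl cisplatin, 9.58 and 8.79 in shZDHHC8 vehicle, and 8.73 and 8.81 in shZDHHC8 cisplatin. Only untreated control cells were high, and the other 3 groups lay between 8.09 and 9.58 FPKM. Cisplatin lowered CDKN2C in shControl cells (-1.34, limma adjusted p = 5.08e-07), as did the knockdown under vehicle (-1.19, limma adjusted p = 1.77e-06), and the interaction was 1.28 (limma adjusted p = 5.79e-05). CDKN1C averaged 2.94, 1.24, 0.972 and 0.641 FPKM in shControl vehicle, shControl cisplatin, shZDHHC8 vehicle and shZDHHC8 cisplatin, and was lower with cisplatin in shControl cells (-0.81) and with the knockdown under vehicle (-0.999) and cisplatin (-0.45). CDKN2D fell with the knockdown under vehicle (-0.47, limma adjusted p = 0.000321) and rose with cisplatin in shZDHHC8 cells (0.51, limma adjusted p = 0.000278). In all, 0 rose and 2 of 3 fell with cisplatin in shControl cells, 1 rose in shZDHHC8 cells, 3 of 3 fell with the knockdown under vehicle, 1 fell under cisplatin, and 3 of 3 had a positive interaction; the list medians were -0.81, -0.059, -0.999, 0.087 and 0.56. Over all tested genes the shares called in these comparisons were 62.2%, 50.5%, 51.7%, 61.4% and 30.4%. With cisplatin in shZDHHC8 cells 1 rose and 1 fell at a pseudocount of 0.1 or without a trend, and 1 rose and 2 fell after median-of-ratios scaling. The CDKN1C interaction of 0.55 (limma adjusted p = 0.0228) lost its call at a pseudocount of 0.1 (0.64, limma adjusted p = 0.0998) and without shControl vehicle replicate 2 (0.50, limma adjusted p = 0.0770), shZDHHC8 vehicle replicate 1 (0.47, limma adjusted p = 0.0649), shControl cisplatin replicate 1 (0.54, limma adjusted p = 0.0574), shControl cisplatin replicate 2 (0.55, limma adjusted p = 0.0546) or shZDHHC8 cisplatin replicate 2 (0.47, limma adjusted p = 0.0718).

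Of 11 other cell-cycle CDKs and cyclins, all tested, 2 rose and 4 fell with cisplatin in shControl cells, and 3 rose and 2 fell in shZDHHC8 cells. The knockdown went with 2 higher and 7 lower under vehicle and with 2 higher and 4 lower under cisplatin, and 3 interactions were positive and 1 negative. The list medians in this order were 0.048, 0.062, -0.31, -0.13 and 0.17, and 62.2%, 50.5%, 51.7%, 61.4% and 30.4% of all tested genes were called. With median-of-ratios scaling the cisplatin medians were -0.053 and -0.087, the balance in shZDHHC8 cells turned to 1 higher and 3 lower, and the knockdown under cisplatin had 2 higher and 6 lower. CCNB1, the mitotic cyclin B1, averaged 72.9 ± 0.746 (SD, n = 2) FPKM in shControl vehicle, 43.6 ± 3.16 in shControl cisplatin, 58.8 ± 3.13 in shZDHHC8 vehicle, and 39.6 ± 1.27 in shZDHHC8 cisplatin, and fell with cisplatin in both backgrounds (-0.73 and -0.56). CCNA2, the S-phase and G2 cyclin A2, fell with cisplatin by 0.42 and 0.24 and with the knockdown under vehicle by 0.38. CDK7, the CDK-activating kinase, rose with cisplatin in shControl cells by 0.79 (limma adjusted p = 7.66e-05). CCNA1, cyclin A1, averaged 16.9, 17.6, 14.5 and 29.6 FPKM in the group order above, and its interaction was 0.94 (limma adjusted p = 0.000733). Under vehicle CCNB2 (-0.35) and CDK1 (-0.44) fell with the knockdown, and under cisplatin CCNA1 (0.72) and CCNC (0.54) were higher and CDK3 (-0.58) lower. CCNB2 had an interaction of 0.35. The CDK7 interaction of -0.41 (limma adjusted p = 0.0367) lost its call with no filter (limma adjusted p = 0.0712), no trend (limma adjusted p = 0.0591), a replicate block (limma adjusted p = 0.0510) and without shControl vehicle replicate 2, shZDHHC8 vehicle replicate 2, shControl cisplatin replicate 1, shZDHHC8 cisplatin replicate 1 or shZDHHC8 cisplatin replicate 2 (limma adjusted p from 0.0749 to 0.109). The 4 interactions called in this list fell to 2, both positive, with no filter, no trend or a replicate block and without shControl vehicle replicate 2, shZDHHC8 cisplatin replicate 1 or shZDHHC8 cisplatin replicate 2, and the 5 calls for cisplatin in shZDHHC8 cells fell to 3 without shZDHHC8 vehicle replicate 1, with 1 higher and 2 lower. The summed proliferation markers MKI67, TOP2A and PCNA moved with these groups, at 239 to 245 FPKM in shControl vehicle, 176 to 187 in shControl cisplatin, 174 to 180 in shZDHHC8 vehicle, and 149 to 154 in shZDHHC8 cisplatin, and their part in the changes was not tested.

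The RB and E2F list (13 genes, all tested) had 8 higher and 2 lower with cisplatin in shControl cells and 7 higher and 1 lower in shZDHHC8 cells. With the knockdown 3 were higher and 7 lower under vehicle, and 4 higher and 7 lower under cisplatin, and 2 interactions were positive and 5 negative; the medians were 0.36, 0.17, -0.18, -0.44 and 0.058. Of all tested genes 36.8% were called higher and 25.4% lower with cisplatin in shControl cells, 36.9% and 13.6% in shZDHHC8 cells, 26.7% and 25.0% with the knockdown under vehicle, 33.8% and 27.6% under cisplatin, and 17.0% and 13.4% for the interaction. E2F7, a repressor E2F, averaged 9.72 ± 0.129 (SD, n = 2) FPKM in shControl vehicle, 31.1 ± 0.415 in shControl cisplatin, 26.5 ± 0.981 in shZDHHC8 vehicle, and 44.8 ± 0.191 in shZDHHC8 cisplatin. It rose in every comparison of drug or knockdown in which it is named: with cisplatin by 1.58 in shControl and 0.74 in shZDHHC8 cells, and with the knockdown under vehicle by 1.36 (limma adjusted p = 3.58e-07). E2F1, an activator E2F, averaged 27.7, 47.8, 17.9 and 23.5 FPKM in the same group order, and was lower with the knockdown under vehicle (-0.60) and cisplatin (-0.99). E2F4, an E2F that mainly serves in repressor complexes, rose with cisplatin in shControl cells by 0.89 and was lower with the knockdown under cisplatin (-1.15). E2F8, the relative of E2F7, went the other way from it with the knockdown, at -1.18 under vehicle and -1.01 under cisplatin. E2F8 (0.65) and E2F2 (0.79) rose with cisplatin in shZDHHC8 cells, and both rose in shControl cells as well (0.47 and 0.77). The pocket protein genes RBL1 (p107) and RBL2 (p130) had opposite interactions of -0.66 and 0.53, and E2F7 had one of -0.84. With median-of-ratios scaling the cisplatin counts became 6 higher and 3 lower in shControl cells and 5 higher and 3 lower in shZDHHC8 cells.

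Genes that degrade or modify the cyclins, kinases and inhibitors (19, all tested) had 10 higher and 6 lower with cisplatin in shControl cells and 10 higher and 3 lower in shZDHHC8 cells. With the knockdown 4 were higher and 5 lower under either treatment, and 2 interactions were positive and 3 negative; the medians were 0.13, 0.18, 0.027, 0.024 and 0.038, and 62.2%, 50.5%, 51.7%, 61.4% and 30.4% of all tested genes were called. With median-of-ratios scaling the cisplatin counts became 6 higher and 8 lower in shControl cells and 5 higher and 4 lower in shZDHHC8 cells, and the knockdown under cisplatin had 3 higher and 8 lower, or 2 and 8 with a common total. DTL, the substrate receptor through which CRL4 degrades p21 on chromatin, averaged 8.63 ± 0.277 (SD, n = 2) FPKM in shControl vehicle, 29.2 ± 0.750 in shControl cisplatin, 10.2 ± 0.174 in shZDHHC8 vehicle, and 19.1 ± 0.608 in shZDHHC8 cisplatin. The DTL rise with cisplatin was 1.65 in shControl and 0.84 in shZDHHC8 cells, and the interaction was -0.81 (limma adjusted p = 0.000266). CDC25A, the phosphatase that activates CDK2, rose with cisplatin by 1.39 and 0.89, with an interaction of -0.50. PKMYT1, an inhibitory kinase of CDK1, rose by 1.28 and 0.81, with an interaction of -0.46, and was lower with the knockdown under vehicle (-0.40) and cisplatin (-0.86). WEE1, another inhibitory kinase of CDK1 and CDK2, was higher with the knockdown under vehicle (0.50) and cisplatin (0.76), so the genes of these kinases moved in opposite directions. CUL4B fell with the knockdown under vehicle (-0.37), and DTL was lower under cisplatin (-0.59). The 9 knockdown calls under cisplatin became 5 without shControl cisplatin replicate 2, and the 13 calls for cisplatin in shZDHHC8 cells became 8 without shZDHHC8 cisplatin replicate 1.

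Transcription factors and regulators upstream of these genes (14, all tested) had 8 higher and 2 lower with cisplatin in shControl cells and 10 higher and 0 lower in shZDHHC8 cells. With the knockdown 3 were higher and 5 lower under vehicle and 1 higher and 10 lower under cisplatin, and 2 interactions were positive and 7 negative; the medians were 0.69, 0.31, -0.080, -0.28 and -0.36. Among all tested genes 62.2%, 50.5%, 51.7%, 61.4% and 30.4% were called, and of those calls 59.2%, 73.0%, 51.6%, 55.1% and 56.0% were higher. MYC, which activates cell-cycle genes, averaged 33.5 ± 0.333 (SD, n = 2) FPKM in shControl vehicle, 80.2 ± 4.75 in shControl cisplatin, 35.2 ± 1.81 in shZDHHC8 vehicle, and 43.5 ± 2.13 in shZDHHC8 cisplatin. MYC rose with cisplatin in shControl cells by 1.23, its interaction was -0.94 (limma adjusted p = 0.000225), and it was lower with the knockdown under cisplatin (-0.87). JUN, an AP-1 subunit that activates CCND1, averaged 75.2, 120, 97.8 and 107 FPKM in the same group order, with shControl vehicle lowest and shControl cisplatin highest, as for CCND1. Unlike CCND1, it was higher with cisplatin in shZDHHC8 cells too (0.13, limma adjusted p = 0.0210), and its interaction was -0.54 (limma adjusted p = 0.000404). JUNB, an AP-1 subunit with the opposite role at CCND1 in mouse fibroblasts, averaged 127, 66.2, 46.2 and 57.7 FPKM and fell with cisplatin in shControl cells (-0.93) and with the knockdown under vehicle (-1.44), with an interaction of 1.25. EGR1, an immediate early factor, averaged 28.9, 22.7, 2.06 and 3.41 FPKM and was lower with the knockdown by -3.29 under vehicle and -2.43 under cisplatin. KLF4, which activates CDKN1A, rose with cisplatin by 1.26 and 0.52 and with the knockdown under vehicle by 0.99. ZBTB17 (MIZ-1) rose with cisplatin by 1.01 in shControl and 0.63 in shZDHHC8 cells. FOXO3, an activator of CDKN1B, averaged 11.2, 19.5, 10.1 and 12.6 FPKM in the same group order. It rose with cisplatin in shControl cells (0.75), where CDKN1B fell, and was lower with the knockdown under cisplatin (-0.59). Whether any of these factors acted on CCND1, CDKN1A or CDKN1B in these cells was not tested. With median-of-ratios scaling the 10 rises in shZDHHC8 cells became 5 with 1 fall, and the 11 knockdown calls under cisplatin became 7, all lower, without shZDHHC8 cisplatin replicate 2.

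**Figure D4:**
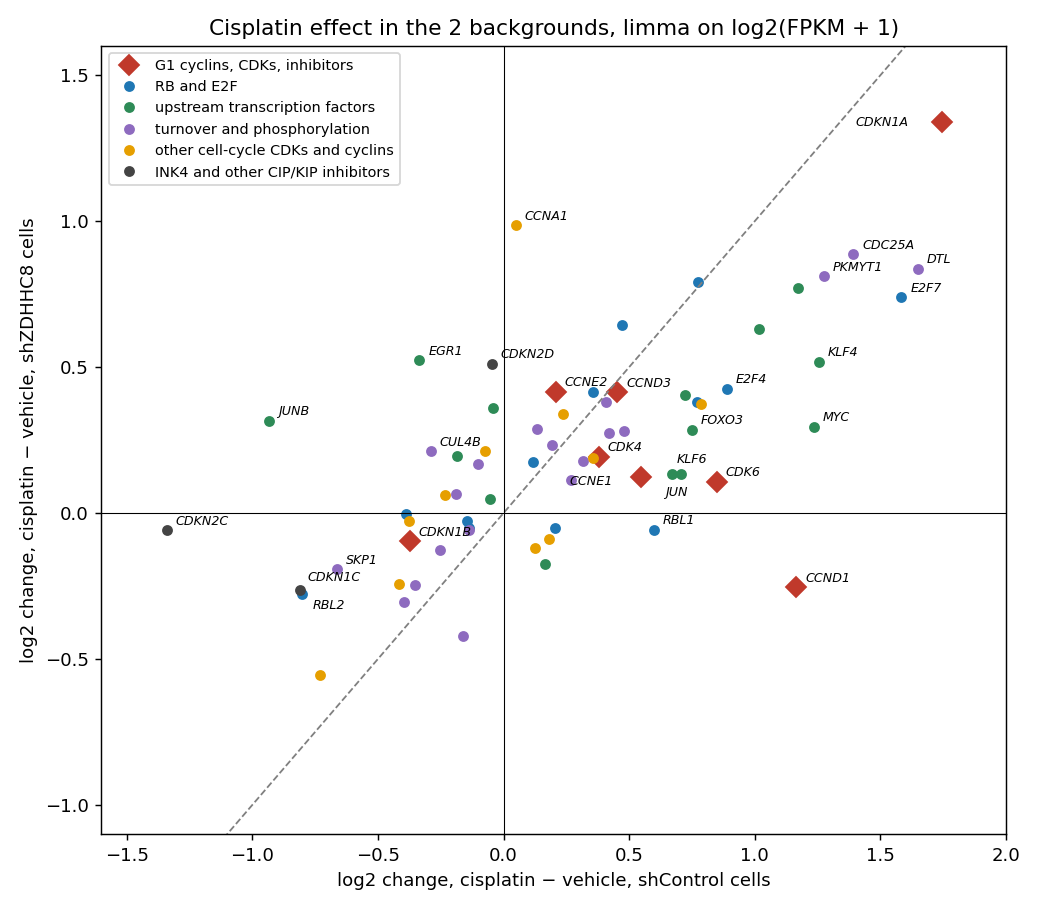
log2 change with cisplatin in shControl cells (horizontal axis) against that in shZDHHC8 cells (vertical axis) for the 8 tested members (diamonds) and the genes of the 5 other lists (circles), with the line of equal change dashed. CCND1 lies at 1.16 and -0.25, and CDKN1A at 1.74 and 1.34; the axes use different vehicle groups.

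By Pearson correlation of log2(FPKM + 1) over the 8 libraries, the protein-coding genes most like CCND1 were UBASH3B (0.978), EVA1A (0.976) and CLDN1 (0.965). CLDN1, which encodes the tight-junction protein claudin-1, averaged 60.4 FPKM in shControl vehicle, 131 in shControl cisplatin, 95.8 in shZDHHC8 vehicle and 81.7 in shZDHHC8 cisplatin, the same order of groups as CCND1. Those most like CDK6 were LIF (0.995), ENC1 (0.993) and DLG5 (0.991). LIF, the cytokine leukaemia inhibitory factor, averaged 17.2, 33.9, 16.6 and 18.4 FPKM in that group order. Those most like CDKN1A were ZNF773 (0.999), BRCA2 (0.998) and RNF19B (0.997), with BRCA2, a homologous recombination gene, at 2.72, 6.47, 2.46 and 4.82 FPKM. Those most like CCNE2 were NECAB3 (0.982), DCAF8 (0.974) and RHBDL1 (0.974), with NECAB3 at 19.2, 23.6, 20.1 and 28.4 FPKM. These coefficients describe 8 points that fall in 4 groups of 2 and share their libraries, and many genes follow the groups.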

How the data were processed

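RNA from 8 libraries was extracted with TRIzol, DNase-treated and poly(A)-selected, per the labels' protocols. The authors deposited their gene values as a single normalized table on hg38, per the submitters' processing notes, taken here as FPKM because its unit is not named; no source used here gives the aligner, quantifier or annotation. Whole reads could not be recovered: among 167 low genes the most common step between replicates was shared by at most 2. Values were transformed to log2(FPKM + 1). Genes at 1 FPKM or more in at least 2 of 8 libraries were tested (13495 of 21123) with limma 3.58.1 in R 4.3.3: group means by lmFit on all libraries, eBayes with trend (residual df 4, prior df 4.64), Benjamini-Hochberg adjustment over all tested genes and calls at an adjusted p below 0.05. The fit was tested on simulated data with 200 of 13495 genes changed, far fewer than were called in the data. For the interaction it recovered 88.3% of log2 changes of 1, 28.4% of those of 0.5 and 0% of those of 0.25. False calls made up 2.65% to 6.60% of the calls over the comparisons. The members and gene lists were chosen with earlier results of these data known, and nothing here is independent support for those results. Named genes were the members, ZDHHC8, up to 3 called genes with the smallest p per list and comparison, and the 3 protein-coding genes most like CCND1, CCNE2, CDK6 and CDKN1A; 1 gene that the rule names is not reported here. Alternatives were a pseudocount of 0.1, no filter, no trend, the 4 libraries of a comparison alone, a replicate block, a common total, median-of-ratios scaling and each library left out. Promoter letters are from RefSeq on GRCh38.p14; 7 of 10 members had a window and 4 had exactly 1. The strandedness is not stated.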

Additional observations from a re-analysis of the deposited data

Results flagged for a closer look

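The cisplatin effect of 4 members differed between shControl and shZDHHC8 cells in limma's interaction test, adjusted over all 13495 tested genes, of which 30.4% were called. The difference was -1.42 for CCND1, whose shControl cisplatin libraries both lay above the shControl vehicle libraries and whose shZDHHC8 cisplatin libraries both lay below the shZDHHC8 vehicle libraries. It was -0.74 for CDK6, -0.43 for CCNE1 and -0.41 for CDKN1A. These 4 calls held in each of the 14 alternatives, in which the CCND1 value ran from -1.47 to -1.40.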

How the results depend on the processing

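The calls of CCND1 in all 5 comparisons, and the interactions of CDK6, CCNE1 and CDKN1A, held in every alternative; over all 8 tested members 550 values under an alternative kept direction and call, 31 lost the call, 4 gained it and 7 changed sign, none of the last being called under either. The sign changes were CDK6 with the knockdown under vehicle at -0.047 (common total), -0.0039 (median-of-ratios) and -0.0088 to 0.041 leaving out single libraries, cisplatin in shZDHHC8 cells after median-of-ratios scaling for CCNE1 (-0.014) and CDK6 (-0.032), and CCNE2 with the knockdown under vehicle at -0.054 to 0.18 leaving out single libraries. The cause was not tested. In some alternatives only the p-value could move, so the direction was fixed in advance. These include no trend, a replicate block and leaving out a library from outside a simple comparison. With the 4 libraries of the comparison alone, 2 members were called for the knockdown under vehicle in place of 4. Leaving out single libraries gave 7, 4 to 5, 2 to 3, 5 to 7 and 4 to 5 called members, and 7201 to 8481, 5183 to 6799, 5400 to 6918, 6888 to 8372 and 2892 to 3504 called genes, for cisplatin in shControl, cisplatin in shZDHHC8, the knockdown under vehicle, under cisplatin, and the interaction. Median-of-ratios scaling moved the median of all genes for cisplatin in shZDHHC8 cells from 0.13 to 0.00074 and the higher and lower calls from 4976 and 1841 to 2891 and 3113, and for cisplatin in shControl cells from 4967 and 3421 to 4054 and 4346; a common total gave 3718 and 4613 for the knockdown under cisplatin, against 4561 and 3720. Whether same-numbered libraries were paired is not stated. Their deviations from the group mean correlated at -0.0515 to 0.0198 in 6 group pairs. That shows no large shared replicate pattern but cannot decide whether the cultures were paired. With a replicate block 7, 5, 3, 7 and 4 members and 8249, 6590, 6724, 8129 and 3758 genes were called. Depth is unknown, so precision comes from the spread between libraries, with 2 a group (median SE 0.0792, interaction 0.112). The fit pools that spread for each gene over all 8 libraries and moderates it by eBayes. A gene thus has the same SE in every simple comparison, even where its groups differ in spread.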

Other observations

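The genes around CDKN2A were looked at after its low level had been seen. Within 1000000 bases on either side, MTAP, the gene next below CDKN2A in coordinate (chromosome 9, 21802636 to 21937651), had 7.37 to 11.5 FPKM over the 8 libraries, and KLHL9 had 4.03 to 6.53. The long non-coding gene MIR31HG had 2.91 to 5.92 FPKM. CDKN2B reached at most 0.0324 FPKM, CDKN2B-AS1 at most 0.0116 and DMRTA1 at most 0.145. The genes listed from CDKN2A to DMRTA1 were thus all low, in every library, while MTAP was not. Low values occurred on the MTAP side as well, with IFNB1 at most 0.0431, IFNE at 0.713 to 1.29 and HACD4 at 0.767 to 2.26 FPKM. No test was made of this.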
